A study of Mus musculus with 10 samples.

Results

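RH-RAS line 4 was compared with RH-RAS lines 1, 2 and 3, all without inhibitor. The 4 arrays were taken by their titles from the 10 of the series. RH-RAS lines are mouse cells that were transformed ex vivo with DNMT3A carrying the R882H mutation together with NRAS carrying the G12D mutation, and the labels call them leukemia stem cells. The 4 lines were derived independently, and all 4 carry both mutant genes. Each line has 1 array of total RNA from cells grown in Opti-MEM with serum, mercaptoethanol and stem cell factor. Levels are also given in lines 1 and 3 after 4 days with 1 µM SGC0946, an inhibitor of the histone methyltransferase Dot1l, in 1 MLL-AF9 line and in 3 NUP98-JARID1A lines. Whether the untreated cells received a vehicle, and when the arrays were scanned, is not given in the sources used here.

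DNMT3A adds methyl groups to DNA, and its R882H form is a frequent mutation of human acute myeloid leukemia. NRAS is a small GTPase that relays signals from growth factor receptors such as Kit, and the G12D form stays active. Together they hold myeloid progenitors in a dividing, immature state in which homeobox genes such as Hoxa9 and Meis1 are on, and cells that leave this state can mature toward monocytes and macrophages.

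All levels below are log2 intensities, and a difference is line 4 minus the mean of lines 1 to 3, so that 1 is a 2-fold difference. With 1 array of line 4 no test and no p-value is possible. A gene was called when its difference was at least 1 and line 4 lay outside the range of lines 1 to 3. Line 4 and the state of its culture or its array cannot be told apart in this design, and in bulk RNA a larger share of maturing cells cannot be told apart from more RNA of a gene in every cell.

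Array medians of the untreated RH-RAS arrays lay between 5.75 and 5.82, with line 4 lowest. The 3′ minus 5′ difference of the Gapdh control was −0.08 in line 4 and −0.10 to −0.05 in lines 1 to 3. That of the beta-actin control was 0.23 in line 4 and 0.12 to 0.19 in the others, and its part in the results was not tested. Of 8 spike-in controls line 4 was above the range of lines 1 to 3 for 2, below it for 4 and inside it for 2, by at most 0.18. The part of these differences in the results was not tested either.

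Of 11993 genes tested, 104 were higher in line 4 and 112 were lower. These are 0.867% and 0.934% of the genes tested, or 1.8% together. Most genes lay close to the other lines, with a median difference of 0.01 and an SD of 0.32 over all genes. With only 3 lines to set the range, 33.2% of all genes tested lay above it and 30.2% below it, and the counts of list members outside the range below are to be read against these shares. The differences ran from −2.95 to 3.25, and 9 genes were higher and 13 lower by at least 2. Lines 1 to 3 themselves were close to each other, with a median range of 0.18 over the genes tested, and 27 genes had a range above 1. Among the 216 called genes the median range of lines 1 to 3 was 0.34, and 198 of them lay outside it by more than the range itself.

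**Figure D1:**
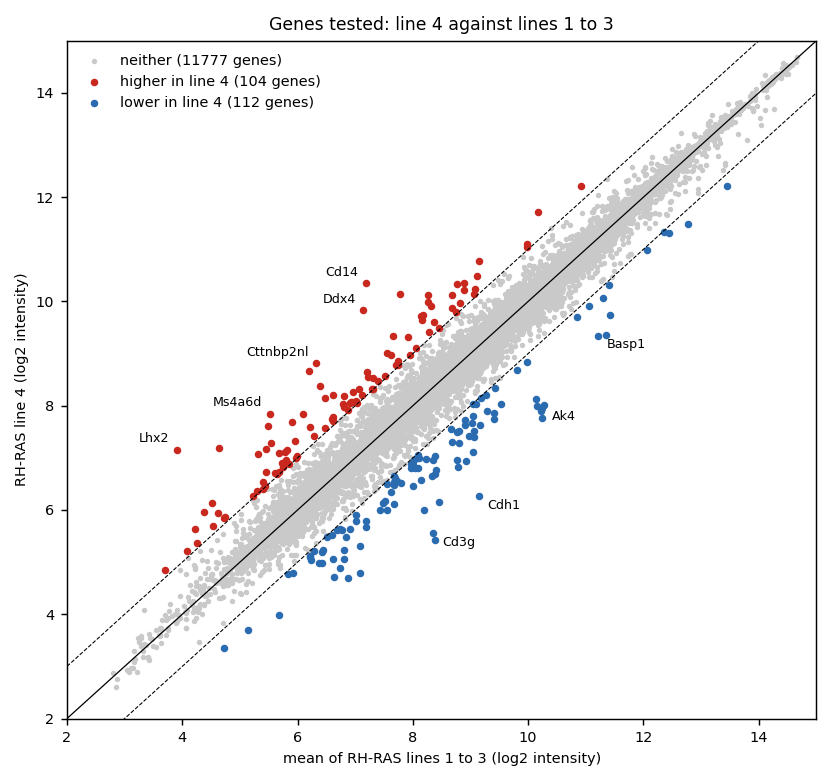
Each point is 1 of the 11993 genes tested, with the mean of RH-RAS lines 1 to 3 on the x axis and line 4 on the y axis, both as log2 intensity. The solid line is equality and the dashed lines mark a difference of 1. The 104 red genes are higher in line 4, with Lhx2, Cd14 and Ddx4 furthest above the range, and the 112 blue genes are lower, with Cdh1 and Cd3g furthest below it.

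The genes that define the progenitor state were on in line 4 as in the other lines. The stem cell factor receptor gene Kit was at 10.52, 10.40 and 10.71 in lines 1, 2 and 3 and at 9.91 in line 4, a difference of −0.63 that was not called. The progenitor surface genes Cd34 and Flt3 were at 12.63 and 12.38 in line 4, with 12.66 to 12.78 and 12.29 to 12.48 in the others. The pan-leukocyte gene Ptprc was at 12.70 against 12.88 to 12.96. Nras was at 11.34 in line 4 and 11.38 to 11.53 in lines 1 to 3, and Dnmt3a at 9.75 against 9.81 to 10.37. How much of either signal comes from the introduced mutant gene was not measured. Markers of mature lineages were mixed. Of 18 late neutrophil granule genes tested 14, among them Ltf, Ngp, Camp and S100a8, were below the array median on all 4 arrays. This held for 3 of 14 B lymphoid genes and 1 of 8 erythroid genes tested. It also held for 2 of 18 T and NK cell genes and 4 of 30 monocyte and macrophage genes. Members not tested were 7 B lymphoid, 6 erythroid, 11 T and NK cell, 4 monocyte and 1 late neutrophil genes. All of those were below the array median on the 4 arrays. Thus the B cell factor gene Pax5 and the erythroid factor gene Gata1 were low, but the lymphoid gene Dntt and the carbonic anhydrase gene Car2 of red cells were above 9 in lines 1 to 3. The female transcript Xist was high in all 4 lines, at 13.48, 13.38, 13.31 and, in line 4, 12.52, while the Y-linked genes Eif2s3y, Kdm5d and Uty lay between 2.76 and 4.25.

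Monocyte and macrophage genes were higher in line 4 as a group. Of 30 members tested, 10 were higher by the rule, none was lower, 21 lay above the range of lines 1 to 3 and 3 below it. The median difference of the list was 0.81, where lines 1 to 3 spread from −0.04 to 0.04 around their own mean. The mean level of the list was 7.90, 7.84 and 7.83 in lines 1, 2 and 3 and 8.66 in line 4, and 10.46 and 10.55 in the SGC0946 arrays of lines 1 and 3, with 9.26 to 10.55 in the lines of other oncogenes. Those arrays share lines 1 and 3 as controls with the comparison here, so their levels are only set side by side. Of the 30 members, 4 were below the array median on all 4 untreated arrays and entered through other arrays. A filter on the mean of those 4 arrays left 22 genes with 8 higher and a median of 0.82.

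**Figure D2:**
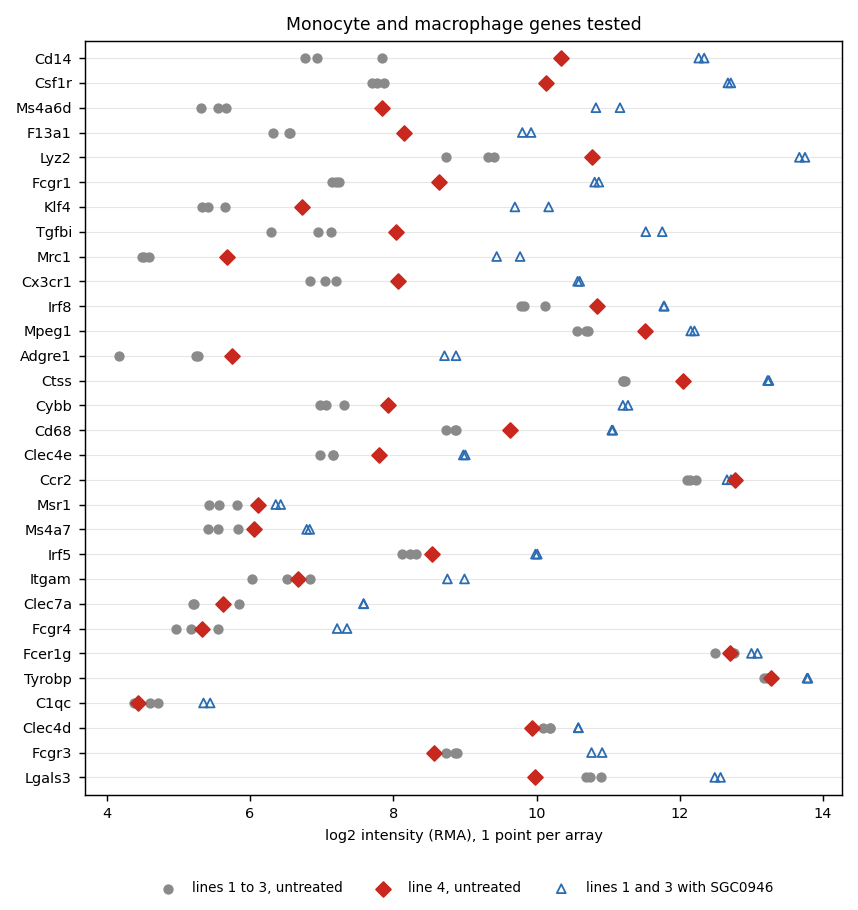
Each row is 1 of the 30 monocyte and macrophage genes tested, ordered by the difference of line 4, and each point is 1 array on the log2 intensity axis. Grey circles are untreated lines 1 to 3, the red diamond is line 4 and open blue triangles are lines 1 and 3 with SGC0946. Line 4 lies to the right of lines 1 to 3 in 21 genes, from Cd14 and Csf1r at the top, and to the left in 3, with Lgals3 lowest.

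Of the 10 higher genes, 5 encode receptors or coreceptors. Cd14, the coreceptor for bacterial endotoxin, was at 6.77, 6.94 and 7.84 in lines 1, 2 and 3 and at 10.34 in line 4, 8.95-fold above their mean of 7.18 ± 0.57 (SD, n = 3). Line 3 was the highest of the 3 and still 2.51 below line 4. Csf1r, which encodes the macrophage colony-stimulating factor receptor, was at 7.87, 7.77 and 7.71 and at 10.13 in line 4, or 5.10-fold higher, and the differences of its other probe sets were 1.60 and 1.55. The high-affinity IgG receptor gene Fcgr1 was at 7.15 to 7.25 and at 8.64 in line 4, with 0.95 as the mean difference over its probe sets. The fractalkine receptor gene Cx3cr1 was at 6.84, 7.04, 7.20 and, in line 4, 8.06. Its call was marginal, at 0.94 without line 1. Mrc1, the mannose receptor, was low on all 4 arrays, at 4.50 to 4.59 in lines 1 to 3 and 5.68 in line 4, and reached 9.44 and 9.77 with SGC0946.

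The others include enzymes, a secreted protein and a transcription factor of monocytes. Lyz2, the lysozyme of myeloid cells, was at 9.32, 9.40 and 8.74 in lines 1, 2 and 3 and at 10.78 in line 4. Its near copy Lyz1, which is next to it among the genes tested and may share probe signal, was at 10.29, 10.53, 9.67 and 11.71. F13a1, the catalytic subunit of clotting factor XIII, was at 6.55, 6.56 and 6.32 and at 8.15 in line 4. Tgfbi, a secreted matrix protein, was at 6.95, 7.13 and 6.29 and at 8.04 in line 4, and it was just under the threshold without line 3, at 0.997. Klf4, a transcription factor that promotes monocyte fate, was at 5.32, 5.65 and 5.41 and at 6.72 in line 4. For each of these genes line 4 lay above all of lines 1 to 3, as the rule for a call requires.

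Several genes of the list were not called. The signalling adaptors Tyrobp and Fcer1g differed by 0.04 and 0.05 and lay within the range of lines 1 to 3. Lgals3, the galectin of macrophages, was at 10.89, 10.75 and 10.70 and at 9.97 in line 4, a difference of −0.80, while it was at 12.49 and 12.57 with SGC0946. The complement genes C1qa and C1qb of tissue macrophages were at background, at 4.37 to 4.63 on all 4 arrays, and were not tested. Adgre1, an adhesion receptor that marks macrophages, was below the array median on all 4 arrays, with 5.75 in line 4 and 4.17 to 5.27 in the others, so line 4 lay above the range without passing the threshold.

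Receptors for microbial products shared this direction. Among 21 Toll-like and scavenger receptor genes tested, 7 were higher and none lower, 16 lay above the range, and the median difference was 0.52. This list shares Cd14, Mrc1, Msr1, Cd36 and Clec7a with the monocyte list, and Cd14 and Mrc1 are among the 7 higher genes. Of the 21, 4 were below the array median on all 4 untreated arrays, and a filter on those arrays alone left 10 genes with 4 higher. The lectin receptor gene Clec5a was at 4.38, 4.22 and 4.51 and at 5.96 in line 4. Ly86, which encodes a partner of a Toll-like receptor family member, was at 9.14, 9.11 and 9.10 and at 10.50. Tlr7 and Tlr13, sensors of RNA in endosomes, differed by 1.17 and 1.13, and Tlr4, the endotoxin receptor, by 1.10. Over all their probe sets the mean difference of Tlr7 was 0.84 and that of Tlr4 was 0.57, and Tlr4 was at 0.93 without line 2.

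Azurophil granule genes, which myeloid progenitors express before they commit to the neutrophil or monocyte path, were partly higher. Of 10 tested, 2 were higher and none lower, with a median of 0.49. Ctsg, cathepsin G, was at 8.17, 8.04 and 8.56 and at 9.98 in line 4, and Prtn3, proteinase 3, at 10.86, 11.02 and 10.87 and at 12.20. Igsf6, an immunoglobulin superfamily gene, differed by 0.92 and myeloperoxidase, Mpo, by 0.60. Neutrophil elastase, Elane, was below the array median on all 4 untreated RH-RAS arrays. Of 18 late neutrophil granule genes none was called, 14 of them lay below the array median on all 4 arrays, and the median was 0.11. The neutrophil growth factor receptor gene Csf3r and the arginine deiminase gene Padi4 led that list at 0.37 and 0.25. Lysosome genes had a median of 0.22 over 25 tested, with 1 higher, the hexosaminidase gene Hexa at 1.06 (0.96 without line 3). The cathepsin gene Ctss and the lysosomal lipase gene Lipa followed at 0.84 and 0.87, above the range and under the threshold. None of 18 lysosome genes was higher without probe sets open to cross-hybridisation.

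A run of neighbouring genes stood out among the higher genes. Ms4a6c, Ms4a6b and Ms4a6d follow each other in RefSeq gene order among the genes tested, and they encode related 4-pass membrane proteins of myeloid cells. Genes not tested were left out of that order. Ms4a6d was at 5.56, 5.67 and 5.32 in lines 1, 2 and 3 and at 7.85 in line 4. Ms4a6c was at 8.11, 8.17 and 8.15 and at 9.72, and Ms4a6b at 8.22, 8.42 and 8.19 and at 9.41. All 3 were called and so, by the rule, lay above lines 1 to 3. No other stretch of tested genes had 3 of 5 neighbours called in 1 direction. Related family members may share probe signal, and the mean difference over all probe sets was 1.53 for Ms4a6d and 0.84 for Ms4a6c.

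Promoters of the monocyte genes were searched for GAGGAA, the core bound by the myeloid factor PU.1, on both strands in RefSeq windows (GRCm38.p6) from 250 bases before to 50 bases after the start. Of 24 monocyte genes with a window 14 held it (58.3%), and of 7 called higher 3 did, against 26.7% of 9731 windows of genes tested and 28.3% of 27025 windows in the table. Over all genes called, 32.1% of higher and 29.5% of lower ones with a window held it. A match here and below is a description of the letters, not a site or a cause. The gene of PU.1 itself, Spi1, was at 9.99, 9.94 and 10.09 and at 10.12 in line 4, and the gene of the myeloid factor C/EBPα, Cebpa, at 8.52, 8.48, 8.65 and 8.59. The promoter of Mrc1 is shown because it held 3 matches, all on the other strand, as TTCCTC in capitals. It is the 250 bases before the start on the plus strand, chr2:14229164-14229413.
Mrc1: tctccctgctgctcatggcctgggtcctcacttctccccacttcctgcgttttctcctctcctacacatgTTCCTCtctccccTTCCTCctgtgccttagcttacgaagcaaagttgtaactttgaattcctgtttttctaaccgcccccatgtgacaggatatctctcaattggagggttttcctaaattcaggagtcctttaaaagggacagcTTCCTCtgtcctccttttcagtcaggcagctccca

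Several of the genes furthest above the range are in none of the monocyte lists. Lhx2, a LIM homeodomain transcription factor, was at 3.65, 3.72 and 4.34 in lines 1, 2 and 3 and at 7.16 in line 4, a 9.53-fold difference. It was at 3.23 to 3.45 in the MLL-AF9 and NUP98-JARID1A lines and at 7.70 and 7.60 in lines 1 and 3 with SGC0946. Ddx4, an RNA helicase of germ cells, was at 7.07 and 7.34 in lines 1 and 2, slightly lower in line 3 and at 9.83 in line 4, 6.46-fold above their mean of 7.14 ± 0.18 (SD, n = 3). It went the other way with SGC0946, at 4.23 and 3.77, and lay between 2.87 and 8.21 in the lines of other oncogenes, so line 4 was the highest of all 10 arrays. 1700042O10Rik was also highest in line 4, at 7.18 against 4.35, 4.46 and 5.07 in lines 1 to 3. Unlike Ddx4, it was close to line 4 in lines 1 and 3 with SGC0946, at 7.09 and 6.88.

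Further genes among the 15 furthest above the range had other roles. Rab7b, a small GTPase of late endosomes, was at 6.38, 6.42 and 6.36 and at 8.38 in line 4. Dab2, an endocytic adaptor, was at 6.11, 5.66 and 5.96 and at 7.69. Wdfy3, an adaptor of selective autophagy, was at 5.85, 5.98, 6.79 and 8.66 on the probe set used. Cttnbp2nl differed by 2.48, Depdc7 by 2.12 and Serpinf1, which encodes a secreted inhibitor of vessel growth, by 1.72. The chemokine gene Ccl9 was at 8.24, 8.37 and 8.19 and at 10.13 in line 4, and its second probe set differed by 1.90. Averaged over all probe sets, the differences were 0.71 for Wdfy3, 0.97 for Serpinf1 and 0.97 for Dab2, which ends those calls. Without probe sets open to cross-hybridisation, Dab2 was at 0.98 and Cttnbp2nl at 1.54.

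**Figure D3:**
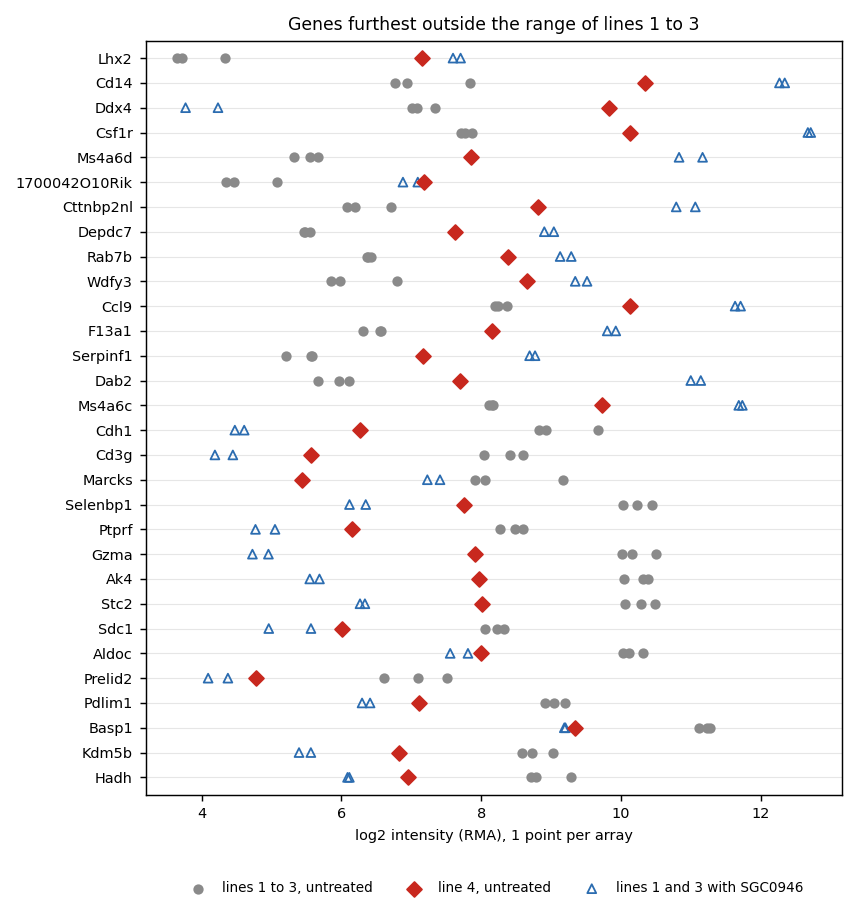
Rows are the called genes most distant from the range of lines 1 to 3, 15 on each side, with 1 point per array on the log2 intensity axis. Grey circles are untreated lines 1 to 3, the red diamond is line 4 and open blue triangles are lines 1 and 3 with SGC0946. The red diamond is clear of all grey circles in each row, as the rule for a call requires. The triangles of Ddx4 lie on the other side of lines 1 to 3 from line 4, and those of Marcks lie between line 4 and lines 1 to 3.

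Glycolysis and hypoxia genes formed the group with the most members below lines 1 to 3. Of 28 tested, 12 were lower and none higher, 27 lay below the range and 1 inside it. The median difference was −0.87, while the medians of lines 1 to 3 spread from −0.12 to 0.09. The mean level of the list was 11.51, 11.35 and 11.58 in lines 1, 2 and 3 and 10.53 in line 4, and it was 10.17 and 10.07 with SGC0946 and 10.11 to 10.42 in the other lines. Some of these genes serve the breakdown of glucose to lactate, and many of the list are switched on by HIF-1 when oxygen is short. The sources used here do not state the oxygen, glucose or density of the cultures.

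**Figure D4:**
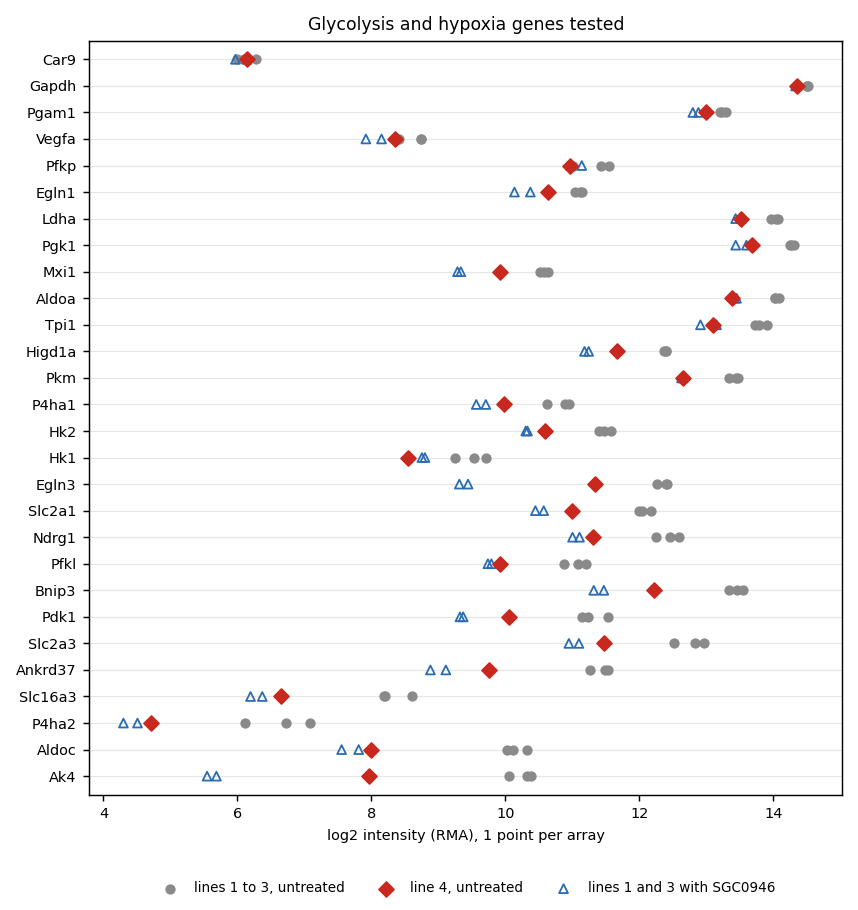
Each row is 1 of the 28 glycolysis and hypoxia genes tested, and each point is 1 array on the log2 intensity axis. Grey circles are untreated lines 1 to 3, the red diamond is line 4 and open blue triangles are lines 1 and 3 with SGC0946. Line 4 lies to the left of lines 1 to 3 in 27 of the 28 genes, and Car9 is the exception.

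Sugar and lactate transporters were lower together. The glucose transporter gene Slc2a3 was at 12.83, 12.51 and 12.96 in lines 1, 2 and 3 and at 11.48 in line 4, and Slc2a1 differed by −1.07. The lactate exporter gene Slc16a3 was at 8.21, 8.18 and 8.61 in lines 1, 2 and 3 and at 6.65 in line 4. It was at 6.37 and 6.20 with SGC0946. All 3 genes were called, and the rule requires line 4 to lie outside the range of lines 1 to 3.

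Glycolytic enzymes were lower to different degrees. The aldolase gene Aldoc was at 10.12, 10.03 and 10.32 and at 7.99 in line 4, 4.48-fold lower. The phosphofructokinase gene Pfkl differed by −1.14, by −0.91 as a mean over its probe sets and by −0.57 without those open to cross-hybridisation. Pdk1, the kinase that holds pyruvate back from mitochondria, was at 11.24, 11.14, 11.52 and 10.06. The hexokinase genes Hk1 and Hk2 at −0.95 and −0.90 and the pyruvate kinase gene Pkm at −0.76 were below the range and under the threshold. Pgk1, Ldha and Gapdh, enzymes of later steps, differed by −0.59, −0.50 and −0.15, also below the range.

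Hypoxia-responsive genes outside the glycolytic chain showed the same direction. Ak4, a mitochondrial adenylate kinase, was at 10.38, 10.05 and 10.32 and at 7.96 in line 4, 4.87-fold lower, with −1.29 as the mean over its 5 probe sets. Ankrd37 was at 11.49, 11.26 and 11.53 and at 9.75. P4ha2, a collagen prolyl hydroxylase, was at 6.73, 6.11, 7.08 and 4.71. The mitophagy receptor gene Bnip3 was at 13.46, 13.34 and 13.54 and at 12.22, and Ndrg1 at 12.46, 12.25, 12.59 and 11.31. Egln3, an oxygen sensor that marks HIF for destruction, differed by −1.02, and by −0.99 without line 3 or over all its probe sets. Other hypoxia genes stayed close, with the vascular growth factor gene Vegfa at −0.28 and the carbonic anhydrase gene Car9 at 0.01.

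The same promoter windows were searched for ACGTG, the core of the hypoxia response element, on both strands, a motif chosen after these values were seen. It lies within the E-box CACGTG, whose matches are therefore included. Of 26 glycolysis and hypoxia genes with a window, 16 held it (61.5%), and of 10 called lower 7 did, against 25.5% of the windows of genes tested and 19.7% of all windows. Over all genes called, 33.3% of lower and 20.2% of higher ones held it. Ankrd37, Slc16a3 and Bnip3 are shown because they are lower genes whose 250 bases before the start hold 2 matches each, in capitals. In Bnip3 the matches overlap in the palindrome CACGTG. Slc16a3 lies on the plus strand at chr11:120948817-120949066, and the others lie on the minus strand, Ankrd37 at chr8:45999851-46000100 and Bnip3 at chr7:138909507-138909756 (GRCm38.p6, RefSeq).
Ankrd37: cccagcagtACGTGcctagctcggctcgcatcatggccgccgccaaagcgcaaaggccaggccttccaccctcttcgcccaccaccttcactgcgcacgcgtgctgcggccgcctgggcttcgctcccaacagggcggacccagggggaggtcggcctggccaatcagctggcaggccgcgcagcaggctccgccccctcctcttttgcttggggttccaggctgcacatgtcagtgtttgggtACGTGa
Slc16a3: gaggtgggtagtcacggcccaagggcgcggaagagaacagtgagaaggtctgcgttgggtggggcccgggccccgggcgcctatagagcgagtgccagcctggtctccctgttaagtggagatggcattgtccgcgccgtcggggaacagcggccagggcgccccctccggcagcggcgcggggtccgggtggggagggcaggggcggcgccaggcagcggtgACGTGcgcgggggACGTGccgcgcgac
Bnip3: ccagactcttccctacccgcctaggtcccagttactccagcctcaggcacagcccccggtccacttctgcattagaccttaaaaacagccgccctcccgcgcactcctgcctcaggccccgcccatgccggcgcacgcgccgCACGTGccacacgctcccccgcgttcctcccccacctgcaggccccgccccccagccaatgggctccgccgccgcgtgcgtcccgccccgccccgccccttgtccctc

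Further motifs were searched on both strands in the promoters of all called genes. TTGCNNA, as bound by C/EBP factors, was in 33.3% of higher, 35.9% of lower and 31.2% of all tested windows. TGANTCA, as bound by AP-1, was in 9 of 84 higher and none of 78 lower windows, against 5.05% of all. CACGTG alone was in 9.52% of higher, 10.3% of lower and 10.1% of all windows, and TGATTNA, of the HOX-MEIS type, in 9.52%, 5.13% and 5.93%.

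Other metabolic lists had smaller medians, with large differences in single genes. Of 24 cholesterol and fatty acid synthesis genes, 23 lay below the range and 1 was called lower, with a median of −0.40. Scd1, the stearoyl-CoA desaturase, was at 8.99, 8.90 and 9.18 and at 7.67 in line 4, and the lanosterol synthase gene Lss followed at −0.84. Genes of the ATF4 stress response, which supply amino acids, went the other way in small steps, with a median of 0.30 over 29 tested and 19 above the range. Here lines 1 to 3 also spread, from −0.22 to 0.21, with line 2 lowest for Cth, Slc7a11 and Psph. Cth, the cystathionine lyase gene, was at 8.41, 7.65 and 8.90 and at 9.91 in line 4. Stc2, which encodes the secreted glycoprotein stanniocalcin 2, was the exception, at 10.29, 10.06 and 10.49 and lay 4.83-fold lower in line 4. Hadh, an enzyme of fatty acid oxidation, was at 8.78, 8.71, 9.28 and 6.95, with −1.21 as the mean over its probe sets.

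Genes known from T and NK cells were lower in line 4. Of 18 tested, 4 were lower and none higher, 15 lay below the range and the median was −0.35. The mean level of the list was 7.25, 7.13 and 7.25 in lines 1, 2 and 3 and 6.50 in line 4. Cd3g, a chain of the T cell receptor complex, was at 8.41, 8.04 and 8.60 and at 5.56 in line 4, 6.93-fold lower. Its partners Cd3e and Cd3d differed by −0.26 and −0.29. Gzma, the killer cell protease granzyme A, was at 10.16, 10.50 and 10.02 and at 7.91, 4.99-fold lower, and at 4.96 and 4.73 with SGC0946.

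The list was not uniform in lines 1 to 3. Cd8a, the T cell coreceptor, and Klrk1, an activating NK cell receptor, were below the array median on all 4 arrays, and the other 16 genes tested were not. Klrd1, an NK cell receptor chain, was at 6.95, 7.15 and 7.47 and at 5.67 in line 4, and Cd7, an antigen of early lymphoid cells, at 8.82, 8.97, 8.63 and 7.51. With SGC0946 Klrd1 was at 7.03 and 6.84, closer to lines 1 to 3 than to line 4. Among 14 B lymphoid genes 1 was lower, Dntt, the terminal transferase of lymphoid progenitors, at 9.27, 9.10 and 9.46 and at 7.89 in line 4. The recombinase genes Rag1 and Rag2 differed by 0.67 and 0.36 in the other direction, and the list had a median of 0.10. Spib, a lymphoid transcription factor gene, differed by −0.94. Of 3 Gimap GTPase genes of lymphocytes Gimap1 was lower at −1.27, and Gimap9 differed by −0.73.

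Adhesion and surface genes were among those furthest below the range. Cdh1, which encodes E-cadherin, was at 8.82, 8.93 and 9.67 in lines 1, 2 and 3 and at 6.26 in line 4, 7.35-fold lower. Its partner on lymphocytes, the integrin gene Itgae, was at 6.84, 6.83 and 6.84 and at 5.49. Both also lay below lines 1 to 3 with SGC0946, Cdh1 at 4.48 and 4.61 and Itgae at 4.90 and 4.94. The heparan sulfate proteoglycan gene Sdc1 was at 8.23, 8.05, 8.32 and 6.01, and the receptor phosphatase gene Ptprf at 8.49, 8.27, 8.60 and 6.15. Of 26 adhesion and integrin genes only Cdh1 and Itgae were called.

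The remaining genes of the 15 furthest below the range had varied roles. Marcks, an actin-binding substrate of protein kinase C, was at 7.91, 8.05 and 9.17 and at 5.43 in line 4, 7.71-fold lower. Lines 1 to 3 differed by more than 1 here, and line 4 lay below all of them, as the rule requires. The mean over its 7 probe sets was −1.80. Pdlim1, a PDZ and LIM protein of actin fibres, differed by −1.94 on the probe set used and by −0.72 over all. Selenbp1, a selenium-binding enzyme, was at 10.23, 10.03 and 10.44 and at 7.76, and Basp1 at 11.27, 11.11 and 11.23 and at 9.35. Kdm5b, a histone H3 lysine demethylase, was at 8.72, 8.58, 9.03 and 6.82, with −1.24 over its probe sets. Prelid2 differed by −2.29, or −1.02 over its probe sets.

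Cytokine and chemokine receptor genes differed in both directions. Of 35 cytokine and growth factor receptor genes, 2 were higher and 2 lower, with a median of 0.02. Besides Csf1r, the shared receptor chain gene Il6st was higher at 1.11, and at 0.96 without line 1. Il1r2, the decoy receptor for interleukin 1, was at 11.34, 11.11 and 11.59 and at 9.35 in line 4. Il10ra was at 7.63, 7.53 and 7.84 and at 6.11, with −0.59 over its probe sets. Of 20 chemokine genes, Ccl9 and Cx3cr1 were higher and Ccl5 was lower at −1.08, which became −0.85 without line 3. Tnfaip2 was the 1 inflammatory gene called of 19, at 1.76, but its mean over probe sets was 0.72, and it was 0.32 without those open to cross-hybridisation. Tnfsf9 came next at 0.77. Among 34 interferon-stimulated genes Ifitm3 was higher at 1.31, and at 0.99 without line 1, Ly6e differed by 0.97, and the median was 0.07.

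Core genes of the RAS pathway lay close to the other lines, while single feedback genes differed in either direction. None of 23 core RAS, MAPK and PI3K genes was called, the median was −0.09, and Rasgrp2 and Rasa2 were furthest at −0.44 and −0.37. Of the 23, 10 lay below the range and 6 above it. Among 26 feedback genes, which report the activity of the pathway, 1 was higher and 1 lower, with a median of 0.06. Egr1, an immediate early transcription factor, was at 8.48, 7.90 and 8.76 and at 7.04 in line 4. Epha2, a receptor kinase, was at 8.06, 8.08 and 8.01 and at 9.11, above all other arrays of the series. It has 1 probe set, and none of 22 feedback genes was higher without probe sets open to cross-hybridisation. Fos and Spry4, further targets of the pathway, differed by 0.73 and 0.71.

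Genes of the stem and progenitor state lay near the other lines. None of 25 stem and progenitor genes passed, with a median of −0.03, Lmo2 at 0.77 and Cd48 at 0.69. Of 3 Hoxb genes none was called, with Hoxb4 at 0.09 and Hoxb5 at 0.05. Hoxa9 was at 12.78, 12.76 and 12.83 and at 12.37 in line 4, and Hoxa5 at 9.20, 9.33, 9.55 and 8.45. The median over 7 Hoxa genes was −0.19, where the medians of lines 1 to 3 spread from −0.03 to 0.04. None was called, 4 lay below the range and none above it. With SGC0946, Hoxa9 was at 11.05 and 10.93 and Meis1 at 6.63 and 6.73. Meis1 in line 4, at 8.07, lay within the 7.96 to 8.14 of the other lines. Of 16 Hox cofactors and MLL-type targets 1 was called, the zinc finger repressor gene Zeb2, at 6.76, 6.79 and 7.64 in lines 1 to 3 and 8.32 in line 4, with 0.66 over its probe sets. The Mycn probe set with the highest mean was at 13.06, 12.99, 13.22 and 12.61. A second Mycn probe set read 11.11, 11.07 and 10.81 in lines 1 to 3 and 9.04 in line 4, and the remaining one differed by −1.14, so the gene was not called although 2 of its 3 probe sets passed the rule.

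No gene of the 2 lists of chromatin regulators tied to the design was called. Dot1l was at 8.24, 8.24 and 8.55 and at 8.37 in line 4. None of 16 genes of the DOT1L complex and its partners was called, with a median of −0.14 and the partners Aff3 and Mllt3 at −0.87 and −0.74. Of these 16, 10 lay below the range and 2 above it, and the medians of lines 1 to 3 spread from −0.04 to 0.02. Of 16 DNA methylation genes 7 lay below the range and 3 above it, with Dnmt3b and Uhrf2 furthest at −0.58 and −0.44. Of 14 long noncoding RNAs Neat1, the scaffold of paraspeckles, was lower at −1.54 (−0.76 over its probe sets). Xist differed by −0.86 on the probe set used, and by −1.35 and −0.80 on its others. The probe set at −1.35 passed the rule, but the one used did not. So none of 6 sex-linked genes tested was called, with Kdm6a next at 0.07. With probe sets averaged, or without those open to cross-hybridisation, 1 sex-linked gene was lower.

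Proliferation genes did not differ by the rule. Of 29 tested none was called, with a median of 0.02, Mki67, a marker of dividing cells, at −0.24 and the thymidylate synthase gene Tyms at −0.25. MYC and ribosome biogenesis genes had a median of 0.12 over 27 with none called and Rrp12 at 0.52, and p53 target genes −0.01 over 20 with none called, Zmat3 at 0.71 and Btg2 at −0.48. Of 13 D cyclins and CDK inhibitors 1 was higher and Ccnd1 differed by 0.51. The higher gene, Cdkn2a, the locus of the tumour suppressors p16 and p19, was at 6.01, 6.09 and 4.90 and at 6.74 in line 4. Line 3 alone set that call, and the difference was 0.68 without it. None of 11 genes of this list was higher without probe sets open to cross-hybridisation. Of 41 lists, 17 had no called member, and dendritic cell and MHC class II genes among them had a median of −0.39 with H2-Aa, H2-Ab1 and H2-Eb1 between −0.68 and −0.60 and Ly6d at −0.83. That median was −0.03 without probe sets open to cross-hybridisation and −0.14 with no filter. The mast cell and erythroid lists had 1 lower gene each, the protease gene Cpa3 at −1.12 and Hemgn at −1.19, with Mitf at 0.75 and Car2 at −0.98 next. Of 13 megakaryocyte genes none was called, with F2r at −0.79 and Plek at 0.35, and of 6 fibroblast genes none, with Acta2 at −0.35 and Fn1 at 0.25. The 1 eosinophil gene tested, Siglecf, differed by −0.36. None of 14 MHC class I genes was called, with Nlrc5 at −0.70 and both H2-D1 and H2-K1 at −0.55, and none of 17 iron and heme genes, with Hfe at 0.90 and Blvrb at 0.53. Of 14 Bcl2 family genes only Bnip3, given above, was called, and Bak1 differed by 0.53. Among 10 imprinted genes Igf2r, the receptor that clears insulin-like growth factor 2, was lower at −1.10, and the antisense transcript Kcnq1ot1 differed by −0.90.

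**Figure D5:**
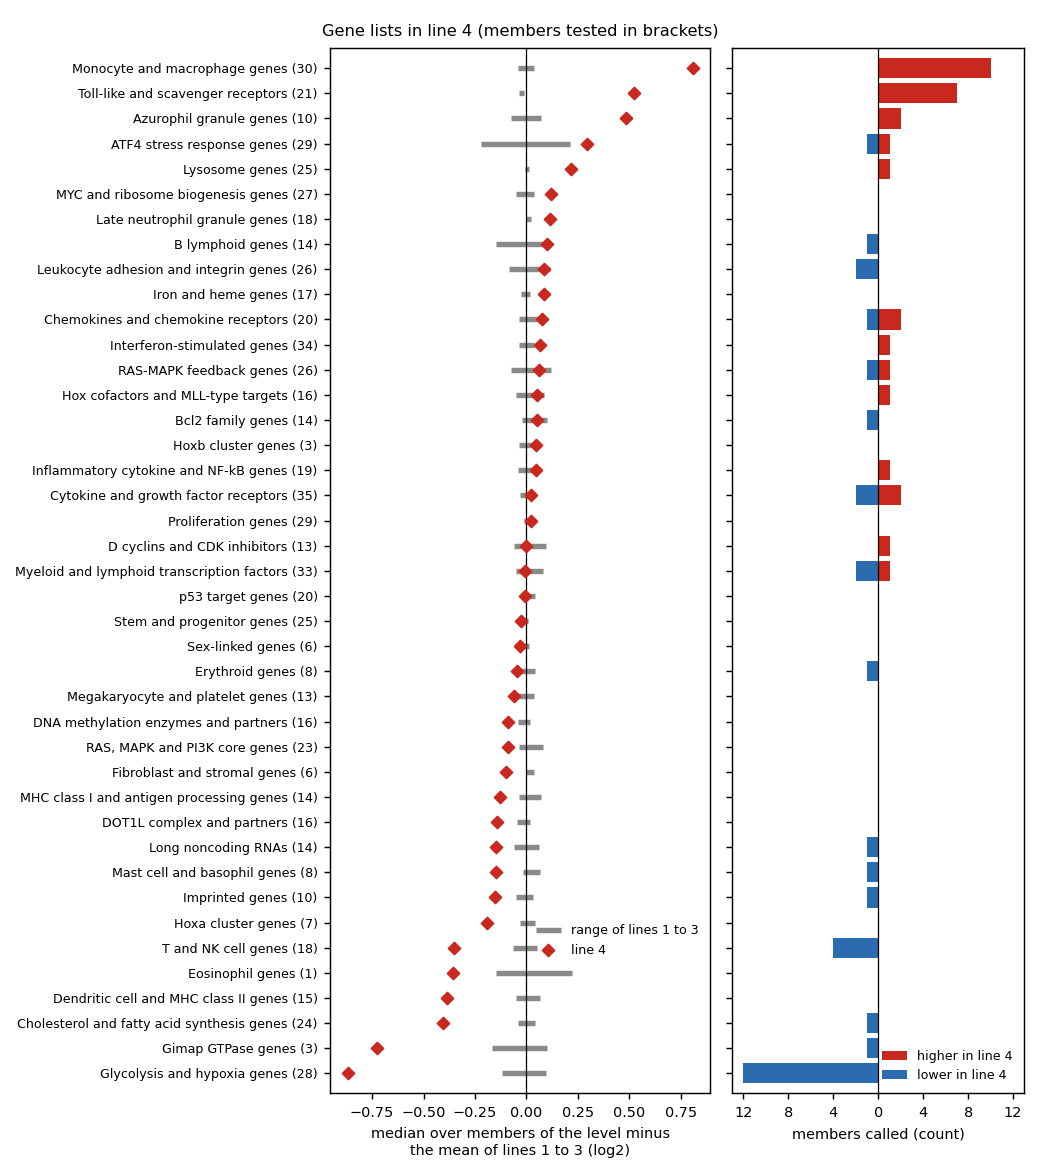
The 41 gene lists are ordered by the median difference of line 4, with the number of members tested in brackets. On the left, red diamonds give the median over members of line 4 minus the mean of lines 1 to 3 (log2) and grey bars the range of the same median in lines 1 to 3. On the right, bars count the members called higher (red) or lower (blue). Monocyte and macrophage genes stand at the top with a median of 0.81 and 10 higher, and glycolysis and hypoxia genes at the bottom with −0.87 and 12 lower.

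In some called genes line 4 was beyond all other 9 arrays of the series, the treated arrays and the other oncogenes included. This held for 14 of the 104 higher and 12 of the 112 lower genes. The share over all genes tested is not given, so whether these counts are unusual was not tested. Some margins were small, as for Cdkn2a at 6.74 in line 4 and 6.65 in line 1 with SGC0946. Among the higher genes were Ddx4, the cytokine signalling inhibitor gene Socs2 at 8.57 against 7.45 to 7.57 in lines 1 to 3, and the purine receptor gene P2rx3 at 10.13 against 7.99 to 9.49. Among the lower genes were Scamp1, which encodes a membrane trafficking protein, at 5.31 against 6.98 to 7.17, and Klf2, a transcription factor of resting lymphocytes, at 7.63 against 8.73 to 9.02. Socs2, P2rx3 and Scamp1 were named after their values were seen. Probe sets of the same gene mostly pointed the same way. For 90 called genes with other probe sets above the filter, 144 of 155 such probe sets had the sign of the one used, 74 were called the same way and none the opposite way.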

How the data were processed

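Total RNA of 10 mouse samples was hybridised to Affymetrix Mouse Genome 430 2.0 arrays, 1 array each. The authors deposited log2 intensities, 1 value for each probe set and array, and the submitters' processing notes name RMA. RMA corrects background, equalises the distributions of the arrays and summarises the probes of a set, so a global shift between lines would be removed. No version is given in the sources used here. Arrays give no read depth, and 1 array of line 4 limits the precision.

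Samples were grouped by title. Of 45101 probe sets, 34958 had 1 gene symbol in the platform annotation, 932 several and 9211 were not listed. For each of 18194 genes the brightest probe set, by its average across all 10 arrays, was taken, and the 11993 genes that exceeded the array median at least 2 times were tested. Genes were called at a difference of at least 1 outside the range of lines 1 to 3. The calling script was tested on simulated data. Python 3.11.15, numpy 2.4.6 and pandas 2.3.3 were used.

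Named genes were the called genes most distant from the range, 15 on each side, the members with the largest absolute difference in each of 41 lists (up to 4, of which the text gives at least 2 where the list has them), any neighbouring run, and the genes Nras, Dnmt3a, Dot1l, Kit, Cd34, Ptprc, Flt3, Hoxa9, Meis1, Mycn, Spi1, Cebpa, Xist, Eif2s3y, Kdm5d and Uty. Other members of a list are named as examples after their values were seen. The comparison, the lists and the members were chosen with earlier results of these data known. Listed names were matched to current symbols, and an older name only where it is no current symbol of another gene. Promoter windows came from RefSeq (GRCm38.p6), and 9731 of the genes tested had one. Alternatives changed the probe set rule, the filter, the scaling, the centre and the threshold, or left out 1 of lines 1 to 3, and the motif ACGTG was added after seeing the data.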

Additional observations from a re-analysis of the deposited data

How the results depend on the processing

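The counts of 104 higher and 112 lower genes stayed within 1.5 times under other choices of probe set, filter, scaling and centre, with 79 to 118 higher and 89 to 122 lower. The genes behind the counts changed more. With probe sets averaged, 69 of the 104 higher and 84 of the 112 lower genes were still called. Leaving out 1 of lines 1 to 3 in turn gave 97 to 122 higher and 105 to 130 lower genes. A threshold of 2 left 9 higher and 13 lower genes, and a threshold of 0.5 gave 484 and 507. No paired analysis was possible because line 4 has 1 array and shares no line with the others, and line 4 itself could not be left out. Of 76 named genes that were called, each kept its sign wherever it had a value, and 61 to 76 kept their call, with 61 when probe sets were averaged. Over the same settings 8 to 11 monocyte genes were higher, 10 to 13 glycolysis and hypoxia genes lower and 3 to 5 T and NK genes lower. For 9 lists the median, near 0 in the reported setting, changed sign in at least 1 other, among them erythroid, proliferation and stem and progenitor genes.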

Other observations

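Of the 216 called genes, 159 were in no list. Those named here were chosen after their values were seen. Among the higher ones were further genes of phagocytes. Lrp1, an endocytic receptor for many ligands, was at 5.61, 5.76 and 5.67 in lines 1, 2 and 3 and at 7.09 in line 4. The receptors for extracellular nucleotides P2ry6 and P2rx7 were at 7.14 and 9.01 in line 4, against 5.47 to 6.10 and 7.43 to 7.75. Casp1, the protease that matures interleukin 1β, was at 8.72, 8.60, 8.70 and 9.87, and the sialic acid lectin gene Cd33 differed by 1.08. Atf5, a transcription factor of the stress response that is not in the ATF4 list, was at 10.24 in line 4, above line 2 at 8.54 and line 3 at 9.68, with line 1 between those.

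Among the lower genes outside the lists, Eno2, a glycolytic enolase, was at 8.78, 8.35 and 9.17 and at 6.96 in line 4. Mgarp, which encodes a mitochondrial protein, was at 8.12, 7.96, 8.36 and 6.58. Bdh1, which interconverts ketone bodies, was at 8.34, 8.46, 8.37 and 6.69. Ctsw, a cathepsin of cytotoxic lymphocytes, was at 9.26, 9.02 and 8.93 and at 7.40, and Tox, a transcription factor of T cell development, at 8.29, 8.74, 9.02 and 7.30. The lysosomal lipid hydrolase genes Galc and Smpd1 were lower, at −1.57 and −1.15, while the lysosome list as a whole had a median of 0.22.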
